A study of Mus musculus with 162 samples.

Results

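The genes described here make the parts of the major histocompatibility complex (MHC) class I pathway, which shows peptides from inside a cell to CD8+ T cells. They were chosen by name from the rows of a gene count table, and all 10 were found among its 53686 rows: the heavy chains H2-K1 and H2-D1, the light chain B2m, the transporter subunits Tap1 and Tap2, the loading factor Tapbp, the immunoproteasome subunits Psmb8, Psmb9 and Psmb10, and the transactivator Nlrc5. mRNA was measured in 9 organs of 18 adult male C57BL/6J mice that were fed ad libitum (0 h) or fasted for 2, 8, 12, 18 or 22 h, with 3 mice at each time and all 9 organs taken from each mouse. All mice were killed at the same clock time, shortly after lights off, so that the fasts differed in when food was removed: the 8 and 12 h fasts covered mainly the light phase, and the 18 and 22 h fasts began in the preceding dark phase. The organs were the olfactory bulb (OB), the brain (BRN), the cerebellum (CBL), the brainstem (BST), the stomach (STM), the liver (LIV) and 3 fat depots, which were brown fat from between the shoulder blades (iBAT), perigonadal white fat (pgWAT) and posterior subcutaneous white fat (psWAT).

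In most nucleated cells the proteasome cuts proteins into peptides, TAP carries the peptides into the endoplasmic reticulum, tapasin (Tapbp) holds the empty class I molecule beside TAP, and a heavy chain paired with B2m takes the peptide to the cell surface. Interferons raise the genes of this pathway and exchange the catalytic proteasome subunits for Psmb8, Psmb9 and Psmb10. NLRC5 acts on the promoters of class I genes through a shared group of sequence boxes. Lymphocytes carry much class I on their surface, and neurons little.

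In the GRCm38 annotation, 7 of the 10 genes lie on chromosome 17, in or beside the MHC. H2-K1 is at chr17:33996017-34000347 on the minus strand and H2-D1 at chr17:35262730-35267499 on the plus strand. Psmb9 (chr17:34181987-34187764, minus), Tap1 (chr17:34187553-34197225, plus), Psmb8 (chr17:34197721-34201454, plus) and Tap2 (chr17:34203527-34216321, plus) are neighbours, and Tapbp is at chr17:33915899-33929292 on the plus strand. B2m is at chr2:122147686-122153083 (plus), Psmb10 at chr8:105935735-105938444 (minus) and Nlrc5 at chr8:94434356-94527272 (plus). Reads were counted over exons. Exons of Tap1 and Psmb9 overlap by 212 bases on opposite strands, those of Tapbp and Zbtb22 in a short stretch on the same strand, and those of Psmb8 and Gm20496 by 498 bases on opposite strands. On opposite strands Tapbp also overlaps Gm19412 by 904 bases, Tap2 overlaps Gm15821 by 533 bases and Gm20496 in a shorter stretch, and Nlrc5 overlaps 9330175E14Rik by 78 bases. The libraries were stranded but the strand setting of the counting is not given in the sources used here, so the part of these reads that belongs to each partner is uncertain. H2-K1 and H2-D1 are similar in sequence, and only reads that mapped to 1 place were counted, which makes their levels relative to each other uncertain.

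The promoters show what the heavy chains and the light chain share although they lie on different chromosomes. The sequences are from RefSeq on GRCm38.p6, 5′ to 3′ on the gene's strand, and the capitals mark letters matched to known motifs. The first pair of sequences ends just before the start of H2-K1 (chr17:34000348-34000547, minus) and of B2m (chr2:122147487-122147685, plus), and their capitals mark, in either direction, an NF-kB consensus, an interferon regulatory factor site (AANNGAAA), the core of a cyclic AMP response element (TGACG) and a CCAAT box.
H2-K1: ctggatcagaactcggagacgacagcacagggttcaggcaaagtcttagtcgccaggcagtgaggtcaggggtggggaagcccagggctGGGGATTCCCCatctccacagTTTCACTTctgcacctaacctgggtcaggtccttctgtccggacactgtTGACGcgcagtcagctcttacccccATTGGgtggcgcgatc
B2m: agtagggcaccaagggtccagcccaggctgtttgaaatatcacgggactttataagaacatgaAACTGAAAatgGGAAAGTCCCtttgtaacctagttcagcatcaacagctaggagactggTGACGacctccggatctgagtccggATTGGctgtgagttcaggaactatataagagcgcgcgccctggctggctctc
In H2-K1, H2-D1 and B2m the core TGACG was followed after 20 bases by ATTGG, the CCAAT box read in reverse. The 30-base stretches are chr17:34000359-34000388 (minus) for H2-K1, chr17:35262993-35263022 (plus) for H2-D1 and chr2:122147609-122147638 (plus) for B2m, with those letters in capitals.
H2-K1 stretch: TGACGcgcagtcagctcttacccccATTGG
H2-D1 stretch: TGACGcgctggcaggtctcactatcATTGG
B2m stretch: TGACGacctccggatctgagtccggATTGG
The H2-D1 stretch matched H2-K1 at 23 of 30 bases, and the B2m stretch at 13 of 30, counts that include the 10 letters searched for, which match by construction. The same letters at this spacing stood in 30 of 32851 promoter windows of 250 bases (0.0913%), searched on both strands. A window was at hand for 8 of the 10 genes. AANNGAAA was in the windows of H2-K1, H2-D1 and B2m and in 21.3% of all windows, and the NF-kB consensus was in those of the same genes and in 7.25% of all. The core TGACG was in 5 members' windows (17.8% of all) and CCAAT in 6 (33.8%). A STAT site, TTCNNNGAA, was in 7.02% of all windows and in 1 member's, that of Psmb8 (chr17:34198088-34198117, plus).
Psmb8 stretch: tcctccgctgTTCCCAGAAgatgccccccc
H2-D1's and Psmb8's stretches lie within exons of longer annotated transcripts of these genes. The RefSeq starts of Psmb9 and Tap1 are 225 bases apart and point away from each other. These matches describe letters in the reference and no binding was measured.

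RNA of pgWAT and psWAT was extracted with another kit than that of the other organs, so that kit and tissue cannot be told apart there. Levels are given as CPM, the count relative to the library total, with that total scaled by its TMM factor, called normalised CPM. The factors were set on either of 2 scales. Levels compared between organs, and the ratios, use factors set over all organs together. Marker sums, the relation to lymphocyte markers in psWAT and all values by fasting time use factors set within the organ. The same library therefore has different values on the 2 scales, and a level on one is not to be set beside a level on the other. Marker sums of different organs come from separate scalings. The retained libraries held 3045845 to 27801717 counts, and the 5 with low totals that the study excluded were left out. The summed neuron markers (Snap25, Syt1, Rbfox3 and Tubb3) reached 2066 to 5153 normalised CPM in every library of the 4 brain regions, hepatocyte markers at least 72460 in LIV and stomach epithelium markers at least 81460 in STM. Ucp1, the uncoupling protein of brown fat, averaged 4259 in iBAT and 90.2 in psWAT. The psWAT libraries carried lymphocyte markers: 5 T cell markers (Cd3d, Cd3e, Cd3g, Cd8a and Lck) summed to 201 to 1347 normalised CPM there and to at most 23.6 in any library of another organ, and 4 B cell markers to 100.5 to 2648 against at most 21.1. The adipocyte markers of psWAT ran from 104.4 to 9085. Markers of other tissues were also present. The hepatocytes list summed to 651.9 to 5163 in CBL, 447.3 to 1301 in BRN, 22 to 3533 in BST, 585.2 to 2642 in STM and up to 4123 in pgWAT (median 28.46), and the skeletal muscle list to 10.25 to 26490 in psWAT (median 423.7) and 30.02 to 8534 in iBAT. In BRN, CBL and BST the hepatocytes list was nearly all Ttr, the thyroid hormone carrier transthyretin, which choroid plexus also makes, and Alb reached at most 5.58 normalised CPM there. The part of these markers in the levels was not tested. One library of each white fat stood apart. In psWAT 12 h replicate 3 the neuron markers reached 3491, and in pgWAT 22 h replicate 2 the leukocyte markers reached 3208 against a pgWAT median of 301.5, with adipocyte markers at 1260, the lowest value in pgWAT. Levels of H2-K1, H2-D1 and B2m, the steps between organs, the psWAT over pgWAT folds and the psWAT relations are given with and without them. In bulk tissue, fewer cells of a type and less RNA per cell cannot be told apart.

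On the scale set over all organs, all 10 genes were lowest in a brain region and highest in LIV or psWAT. Among the heavy chains, H2-K1 averaged 2442 ± 243 (SD, n = 18) normalised CPM in LIV, 1848 ± 480 (n = 17) in psWAT, 720 ± 170 (n = 18) in pgWAT, 413 ± 97.5 (n = 17) in iBAT and 304 ± 72.4 (n = 17) in STM. In the brain it was 34.6 ± 6.29 (n = 18) in OB, 27.2 ± 2.84 (n = 18) in BST, 22.4 ± 4.97 (n = 16) in BRN and 16.8 ± 2.43 (n = 18) in CBL. The lowest LIV library (2159) exceeded every library outside the fats. Each of the 8 steps between neighbours in this order passed edgeR's quasi-likelihood test, in a fit over all organs with the animal as a block. Such a step is common: between 50.6 and 84.3% of all 22113 genes passed the same test between any 2 organs.

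H2-D1 had another order. It averaged 1244 ± 270 in psWAT (n = 17), 838 ± 206 in pgWAT and 795 ± 88.7 in LIV (n = 18 each), and the last pair of organs did not pass the test (log2 difference 0.07, SE 0.09, adjusted p = 0.491). It was lowest in BRN, at 25.9 ± 5.39 (n = 16). In CBL, where H2-K1 was lowest, H2-D1 stood at 82.7 ± 8.61 (n = 18), above BST (lowest 46.2, median 50.2, highest 56.9, n = 18; log2 difference 0.70, SE 0.09, adjusted p = 3.73e-11) and above OB at 42.2 ± 5.04 (n = 18). The CBL libraries (69.6 to 108) and the OB libraries (35.7 to 52.1) did not overlap.

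B2m, the light chain that every class I heavy chain needs, averaged 3261 ± 375 in LIV (n = 18), 1981 ± 504 in pgWAT (n = 18), 1503 ± 401 in psWAT (n = 17) and 591 ± 160 in iBAT (n = 17). It was the only one of the 10 genes lower in psWAT than in pgWAT (log2 difference 0.40, SE 0.10, adjusted p = 0.000159). In the brain it ran from 54.2 ± 4.70 in BRN (n = 16) to 90.6 ± 15.6 in OB (n = 18). Divided by exon length, B2m was the highest of the 10 genes in all 9 organs, from 63.03 normalised CPM per kb in BRN to 3792 in LIV, where H2-K1 was next at 831.

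The other 7 genes were highest in psWAT. Tap1, whose product pairs with that of Tap2 to form the peptide transporter, averaged 238 ± 90.2 in psWAT (n = 17), 35.1 ± 5.79 in LIV, 26.6 ± 6.76 in pgWAT, 23.5 ± 5.00 in iBAT and 17.3 ± 7.44 in STM, and 1.71 to 4.33 in the brain regions. The psWAT range of 98.7 to 431.5 lay above every library of the other organs. Tap2 averaged 177 ± 54.4 in psWAT and 58.8 ± 9.17 in iBAT, and was 5.70 in CBL and 6.32 in BRN, which did not pass the test against each other (adjusted p = 0.477). Tapbp varied least among these genes except Psmb10, from 276 ± 63.9 in psWAT to 21.1 ± 2.69 in CBL, a 13.1-fold range. Its order had psWAT, pgWAT, iBAT, STM and LIV between 275.6 and 132.1, and pgWAT against iBAT, STM against LIV and OB against BST did not pass the test.

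Of the immunoproteasome subunits, Psmb8 averaged 250 ± 88.6 in psWAT, 64.7 ± 10.4 in LIV, 53.7 ± 14.3 in pgWAT and 47.4 ± 46.4 in iBAT, where the median was 36.2 and 1 library reached 218 on this scale over all organs. LIV against pgWAT (adjusted p = 0.121) and pgWAT against iBAT (0.107) did not pass the test. Psmb9 averaged 137.2 ± 47.6 in psWAT and 26.4 to 27.8 in pgWAT, LIV and iBAT, which did not differ beyond their spread in either step (adjusted p = 0.869 and 0.496). Psmb10 had the narrowest range, 7.30-fold between its means in psWAT and CBL. Its median was 107.8 in psWAT, and it averaged 93.8 ± 17.5 in LIV and 15.3 ± 1.86 in CBL. In BRN Psmb10 stood at 55.6 ± 18.0 (n = 16), next to pgWAT at 56.97 ± 17.0 (adjusted p = 0.684), whereas Psmb8 was 3.97 ± 1.82 and Psmb9 1.26 ± 0.909 in the same BRN libraries. The BRN mean of Psmb10 pools fed and fasted mice: on this scale its 0 h libraries held 27.02, 31.7 and 38.04, beside 30.1 to 35.75 in BST and 33.6 to 47.85 in pgWAT at 0 h.

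Nlrc5, which drives transcription of class I genes, averaged 150 ± 74.0 in psWAT, 64.4 ± 13.9 in LIV, 23.8 ± 9.91 in pgWAT, 16.6 ± 7.27 in iBAT and 6.23 ± 2.65 in STM. In the brain it was 0.418 to 1.08, and 6 CBL, 4 BRN and 1 BST libraries held 3 counts or fewer. None of the neighbouring steps in the order OB, BST, BRN and CBL passed the test (adjusted p from 0.0793 to 0.362), whereas Nlrc5 was higher in OB than in BRN (log2 difference 0.75, adjusted p = 0.0203) and CBL (1.41, 6.5e-06), and its CBL level minus its BST level was -1.14 (0.000596). In all, 59 of the 80 neighbouring steps of the 10 genes passed, and 59 again without the psWAT and the pgWAT library that stood apart. Without the psWAT library its mean was 1919 ± 391 for H2-K1, 1293 (median 1340) for H2-D1 and 1577 ± 269 for B2m (n = 16), whereas that library alone held 708, 454.5 and 320 normalised CPM of them. Without the pgWAT library its mean was 742 for H2-K1, 866.5 for H2-D1 and 1936 for B2m (n = 17).

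**Figure D1:**
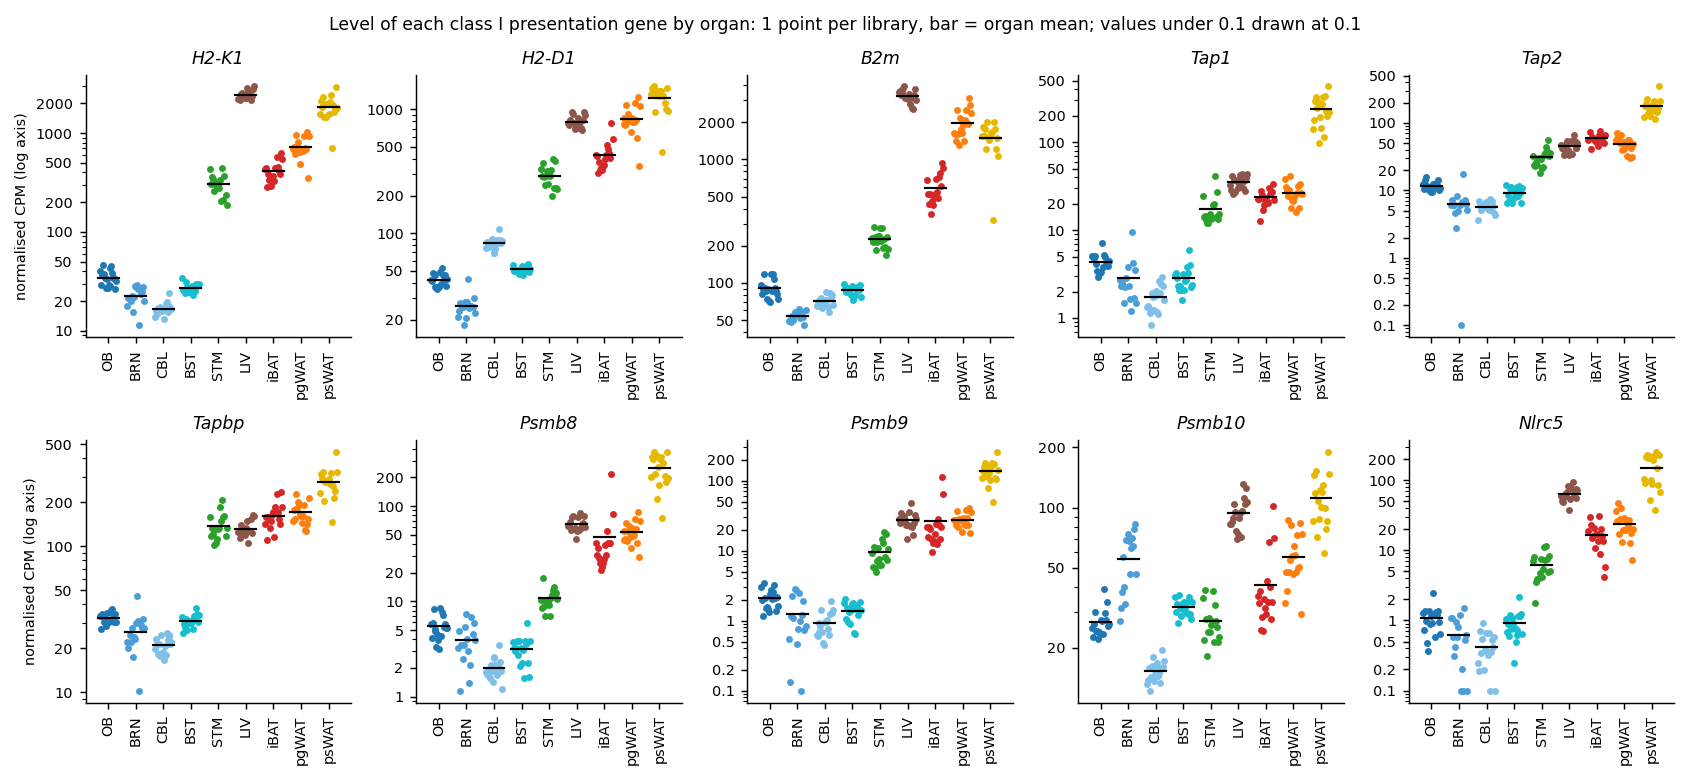
Normalised CPM on the scale set over all organs (log axis) of the 10 class I presentation genes in 9 organs, with 1 point per library and a bar at the organ mean. The brain regions lie lowest for H2-K1, H2-D1, B2m, Tap1, Tap2, Tapbp, Psmb8, Psmb9 and Nlrc5, and Psmb10 in BRN (mean 55.6 over all fasting times, 27.02 to 38.04 at 0 h) lies among the peripheral organs.

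Ratios within a library do not depend on its total count. H2-K1 over H2-D1 was 3.09 ± 0.282 in LIV (n = 18), where it ran from 2.63 to 3.59, and 0.203 ± 0.0190 in CBL (n = 18), where it ran from 0.174 to 0.236. In the other organs the mean ratio was 1.49 in psWAT, 1.04 in STM, 0.978 in iBAT, 0.879 in BRN, 0.868 in pgWAT, 0.818 in OB and 0.534 in BST. The LIV libraries and the CBL libraries each lay outside the range of all the others. Psmb8 over Psmb10 ran from 0.0756 ± 0.0350 in BRN (n = 16) through 0.702 ± 0.114 in LIV (n = 18) to 2.24 ± 0.577 in psWAT (n = 17). Without the psWAT library that stood apart it was 2.299 there (n = 16). Tap1 over Tap2 was 1.33 ± 0.323 in psWAT (1.352 without that library), 0.791 ± 0.160 in LIV and 0.303 ± 0.0985 in CBL. B2m over H2-K1 was highest in CBL at 4.27 ± 0.569 and lowest in STM at 0.770 ± 0.165.

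**Figure D2:**
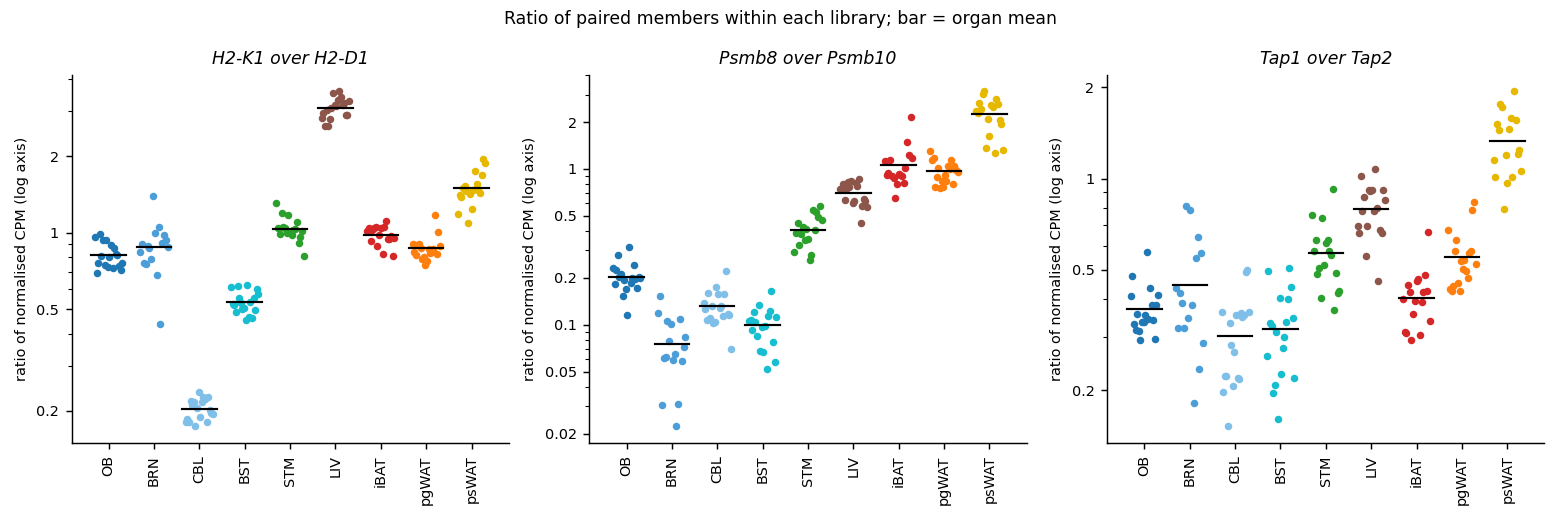
Ratio of normalised CPM (log axis) of H2-K1 over H2-D1, Psmb8 over Psmb10, and Tap1 over Tap2 in each library, with a bar at the organ mean. The H2-K1 over H2-D1 ratio spans 0.203 in CBL to 3.09 in LIV, and Psmb8 over Psmb10 spans 0.0756 in BRN to 2.24 in psWAT. A BRN library with no Tap2 count has no Tap1 over Tap2 ratio.

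Within psWAT, on the scale set within the organ, the members moved with the lymphocyte markers to different degrees. With the sum of the 9 T and B cell markers over the 17 libraries, Psmb8 had the highest Pearson's r and Tap1 the highest Spearman's rho. Psmb8 gave r = 0.913 (permutation p = 1e-05) and rho = 0.878 (permutation p = 3e-05), two-sided on the log2 scale. The values for Tap1 were r = 0.895 (permutation p = 1e-05) and rho = 0.917 (1e-05), and for Nlrc5 r = 0.886 (permutation p = 1e-05) and rho = 0.863 (2e-05). Psmb9 gave r = 0.844 (permutation p = 3e-05) and rho = 0.855 (2e-05). Here 1e-05 is the smallest p that 100000 permutations can give, and 10 such relations were computed. H2-K1 had r = 0.701 (permutation p = 0.00342) and rho = 0.743, and Tap2 r = 0.597 (permutation p = 0.0155) and rho = 0.730. The relation was weaker for B2m (r = 0.518, permutation p = 0.0642, rho = 0.265), Psmb10 (r = 0.492, 0.0439, rho = 0.578), H2-D1 (r = 0.471, 0.0675, rho = 0.375) and Tapbp (r = 0.353, 0.166, rho = 0.368).

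Without the 2 libraries farthest from the marker median, r was 0.881 for Psmb8, 0.835 for Tap1, 0.850 for Nlrc5, 0.749 for Psmb9 and 0.588 for H2-K1. Leaving out psWAT 12 h replicate 3 alone left Psmb8 at 0.902 and lowered H2-D1 to 0.135, B2m to 0.220 and Tapbp to 0.106, so that the values for H2-D1, B2m and Tapbp rested on that library. Without it r was 0.879 for Tap1, 0.850 for Nlrc5, 0.796 for Psmb9, 0.590 for H2-K1, 0.537 for Tap2 and 0.361 for Psmb10. Within sequencing lane 5 (n = 10) and lane 7 (n = 6), r was 0.950 and 0.933 for Psmb8, 0.884 and 0.897 for Tap1, and 0.921 and 0.862 for Nlrc5, but 0.927 and -0.159 for H2-D1. Lane 5 holds psWAT 12 h replicate 3, and no value for lane 5 without that library was computed. Members and markers come from the same libraries and share their scaling, and the lymphocyte and adipocyte sums themselves ran against each other (r = -0.646, n = 17). What part of the psWAT levels came from lymphocytes was not tested. On the scale over all organs, the psWAT level relative to pgWAT was highest for Tap1 (8.93-fold), Nlrc5 (6.30-fold), Psmb9 (4.94-fold) and Psmb8 (4.66-fold), and lowest for Tapbp (1.62-fold), H2-D1 (1.48-fold) and B2m (0.759-fold). Without the library of each fat that stood apart, the folds were 9.22 for Tap1, 6.33 for Nlrc5, 5.03 for Psmb9, 4.73 for Psmb8, 1.66 for Tapbp, 1.49 for H2-D1 and 0.814 for B2m.

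**Figure D3:**
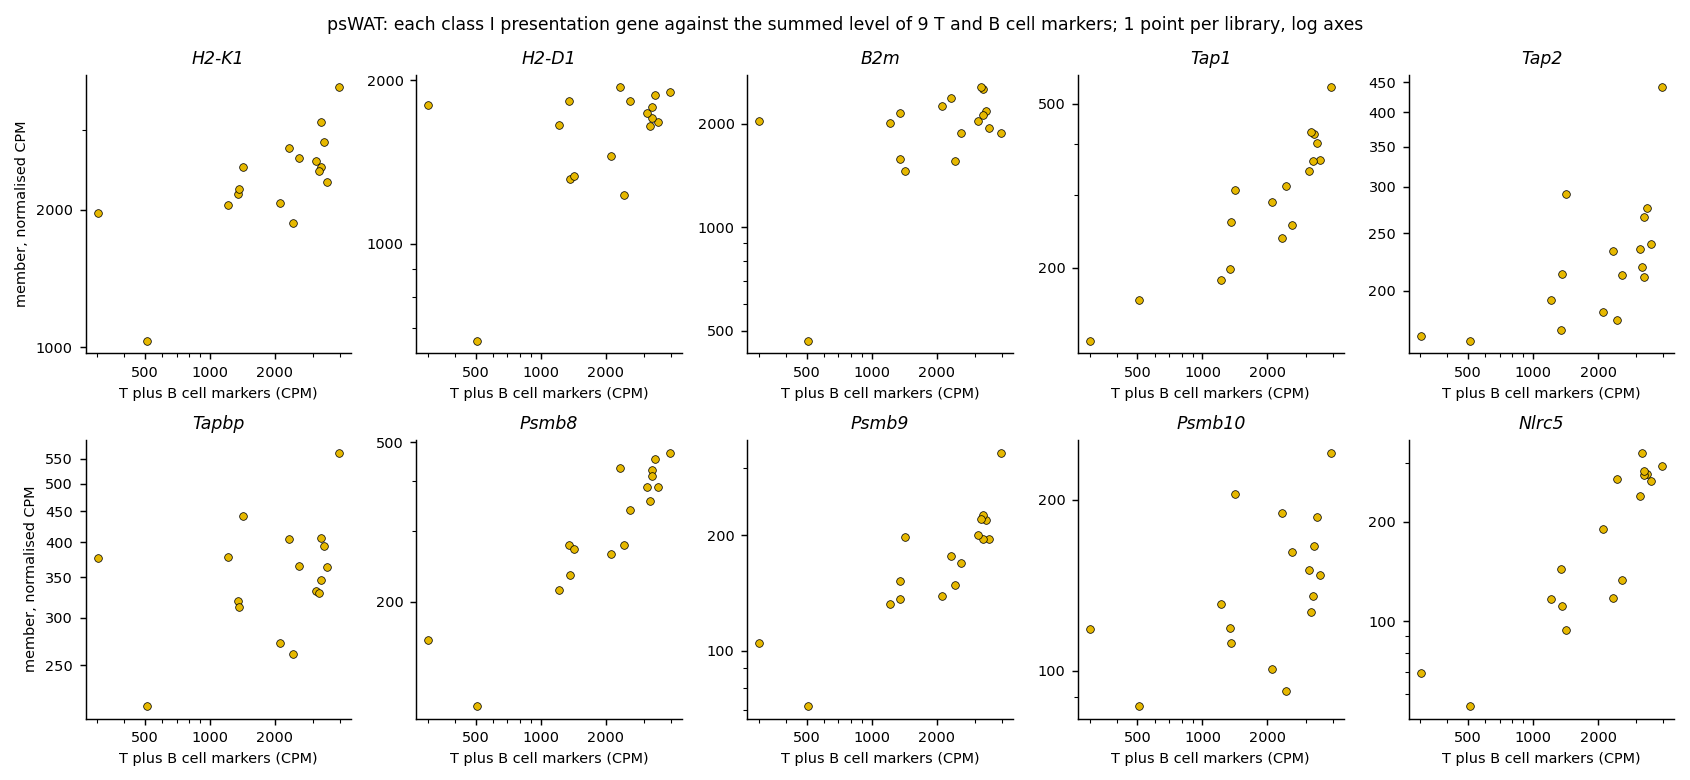
Normalised CPM on the scale set within psWAT of each class I presentation gene against the summed normalised CPM of 9 T and B cell markers in the 17 psWAT libraries (both axes log, 1 point per library). Psmb8, Tap1, Nlrc5 and Psmb9 go up with the marker sum (r from 0.844 to 0.913), and H2-D1, B2m and Tapbp spread widely, with 1 low library, psWAT 12 h replicate 3.

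From here on, levels are on the scale set within each organ. Whether fasting changed these genes was asked organ by organ against the 0 h mice, with edgeR's quasi-likelihood test and Benjamini-Hochberg adjustment over all genes kept in the organ. A call is an adjusted p under 0.05. Nlrc5 was too low to be tested in CBL, which left 89 pairs of a gene and an organ. In the late fast, the mean of 18 and 22 h, 7 of the 89 pairs were called, 6 higher and 1 lower, beside 6.44% of all genes over the 9 organs. The 7 were Psmb8, Psmb9, H2-D1, B2m and Nlrc5 in iBAT and Psmb10 in BRN and in LIV. Of the 89 estimates 69 were positive in the late fast, 33 for the mean of 8 and 12 h and 44 at 2 h. The share of positive estimates over all genes was not computed, and the organs come from the same mice. In the daytime fast, the mean of 8 and 12 h, 1 pair was called (all genes 1.90%), Psmb10 in BRN. After 2 h none was called by edgeR or DESeq2, beside 0.0395% of all genes called by edgeR. At an unadjusted p under 0.05 there were 2 pairs. The share of all genes under it was lowest in CBL (522 of 15976) and highest in LIV (1427 of 14023). The joint test of the 6 times called 7 pairs (all genes 7.34%), 6 in iBAT (all iBAT genes 29%) and Psmb10 in LIV (16%). All these contrasts use the same 0 h libraries.

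**Figure D4:**
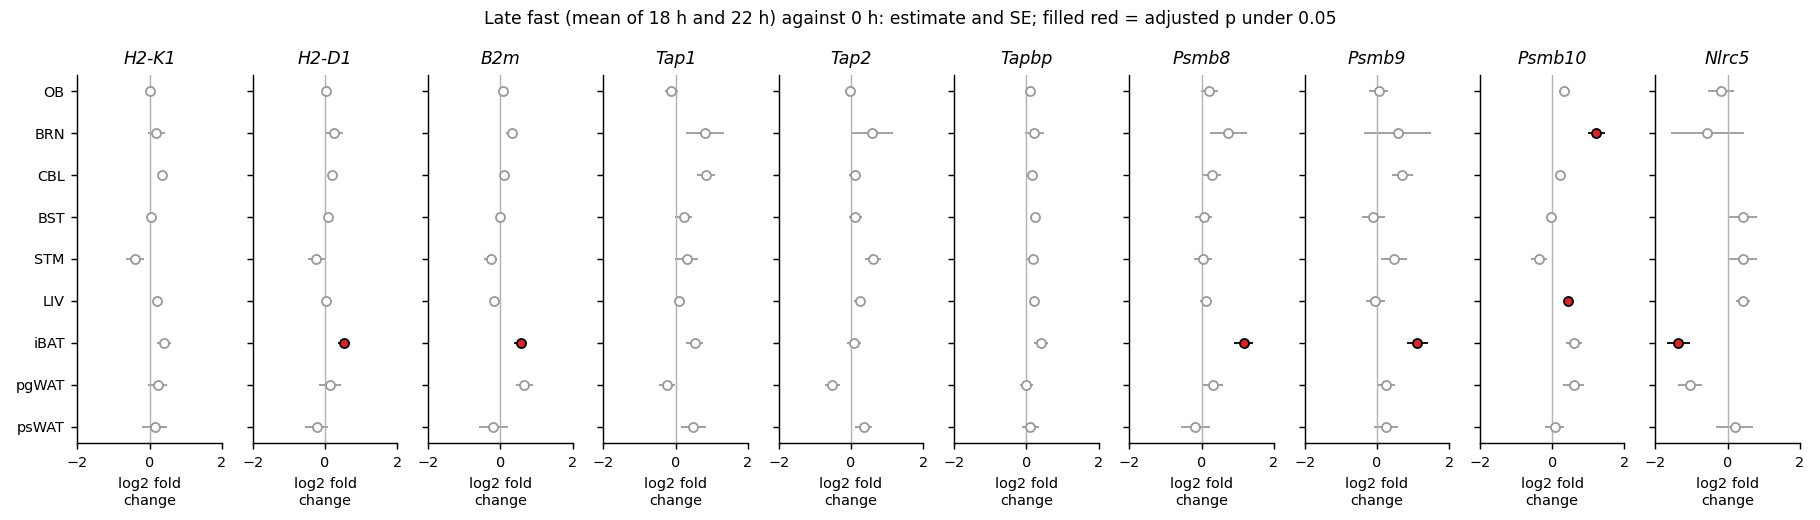
Log2 fold change of the late fast (mean of 18 and 22 h) against 0 h, with its SE, for each gene and organ, where filled red points passed edgeR's quasi-likelihood test at an adjusted p under 0.05. Of 89 pairs 7 passed, 5 of them in iBAT, where Nlrc5 alone was lower.

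In iBAT, after 22 h, the immunoproteasome genes rose most while Nlrc5 fell. Psmb8 stood at 28.5, 22.1 and 26.2 normalised CPM in the 0 h mice, at 27.6, 30.1 and 29.2 after 18 h and at 168.2 and 59.8 after 22 h. Both 22 h libraries were above every other iBAT library, and the 0 and 18 h libraries overlapped. The change was 1.16 on the log2 scale for the late fast (SE 0.26, adjusted p = 0.00829) and 2.15 for 22 h alone (SE 0.31, adjusted p = 0.000315). Among all iBAT genes 20.9% were called in the late fast and 41% at 22 h, and 5 and 8 of the 10 members, so that the count of members stood in an organ where many genes changed. At 18 h alone 0 of the 10 members were called (lowest adjusted p = 0.626), beside 0.275% of all iBAT genes. The late fast calls in iBAT thus rested mainly on the 22 h libraries.

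Psmb9, the other inducible subunit encoded in the MHC, was at 15.2, 11.1 and 15.75 at 0 h, at 15.7, 10.8 and 15.3 at 18 h and at 87.0 and 46.9 at 22 h. Again only the 22 h libraries stood apart (late log2 change 1.12, SE 0.29, adjusted p = 0.0145; 22 h 2.24, SE 0.34, adjusted p = 0.000383). Psmb10, which lies outside the MHC, was at 25.55, 24.2 and 27.9 at 0 h, at 27.3, 20.2 and 23.9 at 18 h and at 78.7 and 51.02 at 22 h. It was called at 22 h (1.32, SE 0.26, adjusted p = 0.00117) and missed the threshold for the late fast (0.60, adjusted p = 0.0536).

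Nlrc5 ran the other way, at 13.4, 21.3 and 16.7 at 0 h, at 13.6, 11.7 and 9.60 at 18 h and at 3.19 and 4.23 at 22 h. Its 22 h libraries were the lowest in iBAT, and the 18 h range met that of 0 h only at its upper end. Nlrc5 fell by 1.36 on the log2 scale in the late fast (SE 0.33, adjusted p = 0.0111) and by 2.17 at 22 h (SE 0.47, adjusted p = 0.00199). The heavy chain genes and B2m rose less. H2-D1 was at 298, 304 and 223 at 0 h, at 327, 320.5 and 284 at 18 h and at 599 and 416.5 at 22 h (late 0.53, SE 0.17, adjusted p = 0.0323; 22 h 0.88, SE 0.20, adjusted p = 0.00262).

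B2m was at 476, 377 and 316 at 0 h, at 492, 570 and 428 at 18 h and at 720 and 613.5 at 22 h, with no overlap between 0 and 22 h. It rose in the late fast (0.56, SE 0.18, adjusted p = 0.0372) and at 22 h (0.77, SE 0.22, adjusted p = 0.0101). H2-K1 (0.68, SE 0.23, adjusted p = 0.0252) and Tapbp (0.69, SE 0.24, adjusted p = 0.0293) were called at 22 h only, with H2-K1 at 207 to 317 at 0 h and at 485 and 398 at 22 h, and Tapbp at 79.7 to 115.2 at 0 h and above all of these at 22 h. Tap1 and Tap2 were not called at either time in iBAT.

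These calls rest on few mice. The study left out the third 22 h iBAT library, which held 2700482 counts, and its plain CPM was 36.3 for Psmb8, 32.2 for Psmb9, 66.7 for Psmb10 and 2.96 for Nlrc5. With all libraries the 22 h change was 1.78 for Psmb8 (adjusted p = 0.0012), 1.98 for Psmb9 (0.00042) and -2.26 for Nlrc5 (0.000464), and Tap1 was called as well (1.32, 0.00801), while B2m missed the threshold for the late fast (0.47, 0.0891). Without iBAT 22 h replicate 2, the library with the highest Psmb8, Nlrc5 and Psmb8 were the 2 iBAT genes still called in the late fast, with Psmb8 at 0.69, and Psmb8, Psmb9, Psmb10 and Nlrc5 the 4 called at 22 h. That fit holds 1 library at 22 h, which is assumed to vary like the other groups. The retained 22 h libraries ran in lanes 1 and 3, which held no other retained iBAT library, so that lane and the 22 h time cannot be told apart in iBAT, and no late, 22 h or joint value with lane as a covariate could be estimated there. H2-D1 and B2m lost the late call without 0 h replicate 3, 18 h replicate 1 or 18 h replicate 2, and at 22 h Tapbp was lost without 0 h replicate 1, and Tapbp and H2-K1 without 0 h replicate 3. Without iBAT 0 h replicate 2, none of the 5 passed (adjusted p from 0.0583 to 0.139), but all 8 passed at 22 h.

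Transcript length moved with the iBAT change across genes (Spearman's rho = -0.474 over 14265 genes in the late fast, a description), and B2m has the shortest exons of the 10 genes (860 bases) and Nlrc5 the longest (8493). With offsets for length, Psmb8 (1.06, adjusted p = 0.0137), Psmb9 (1.07, 0.022) and Nlrc5 (-0.96, 0.0264) were still called in the late fast, but H2-D1 was 0.27 (0.221) and B2m 0.00 (0.992). At 22 h Psmb8, Psmb9, Psmb10 and Nlrc5 were still called and Tap1 passed (0.92, 0.0246), while H2-D1 (0.44, 0.0742), H2-K1 (0.37, 0.203), Tapbp (0.61, 0.0521) and B2m (-0.23, 0.505) were not called. Markers of other cells also moved in iBAT. The 5 markers of T cells, of which 4 (all but Lck) were at 0 in at least 1 library, summed to 23.6 and 2.12 at 22 h and to 0.815 to 6.40 in the other libraries, the 4 markers of NK cells to 13.7 and 3.34 against 0.619 to 5.29, and the 5 markers of leukocytes to 49.7 and 32.9 against 15.1 to 44.6. The 4 endothelium markers summed to 148.4 and 224 at 22 h and to 225.8 to 897 elsewhere, and the list of white and brown adipocytes to 10370 and 8458 at 22 h within a range of 5328 to 11510. Their part in the result was not tested.

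**Figure D5:**
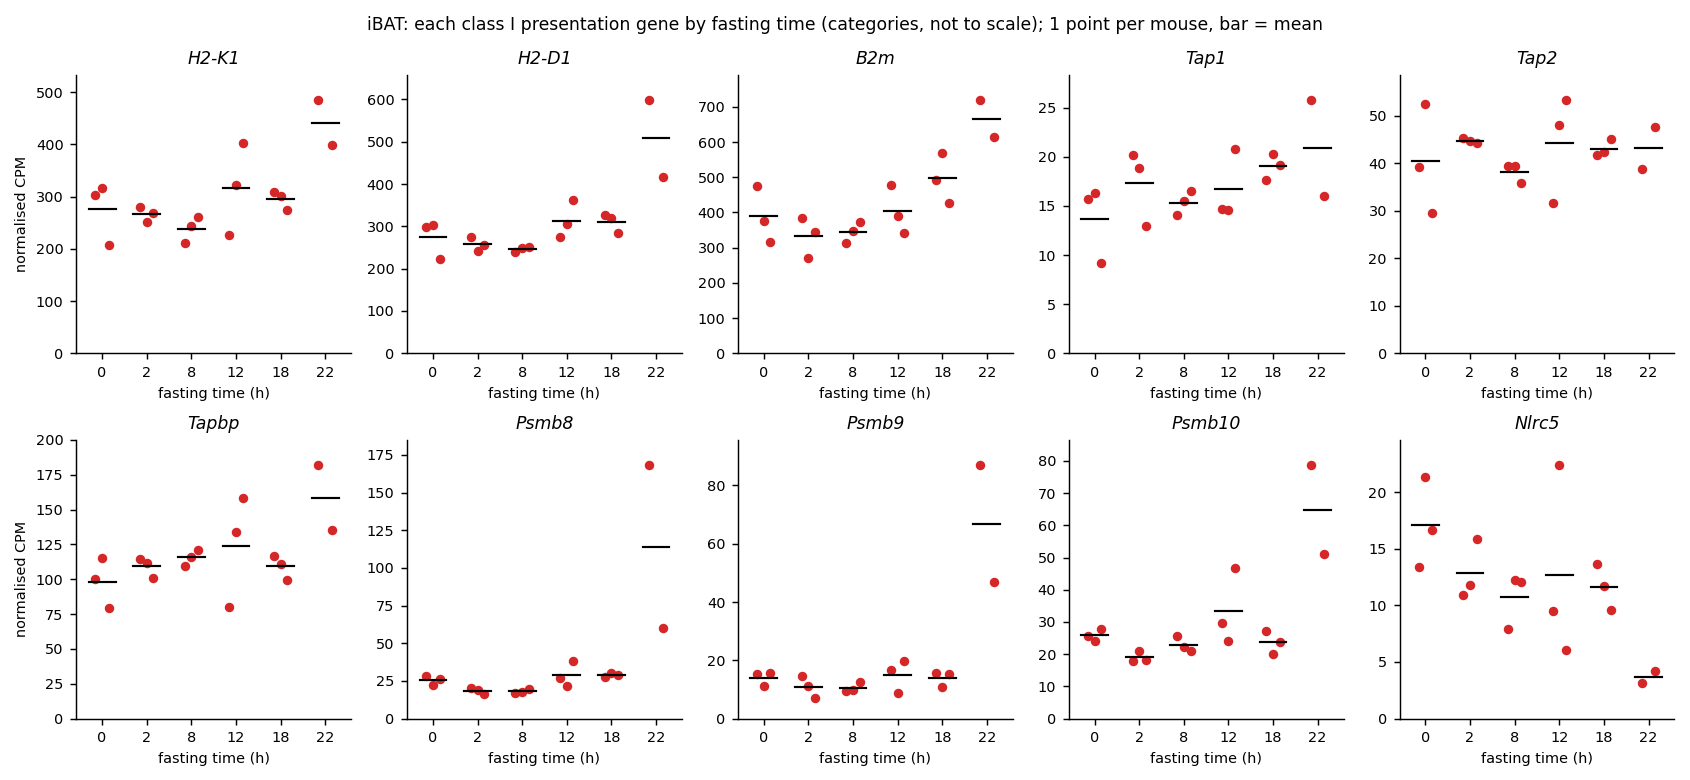
Normalised CPM on the scale set within iBAT of each class I presentation gene in iBAT by fasting time in hours (1 point per mouse, bar at the mean, linear axis from 0). Psmb8 (168.2 and 59.8) and Psmb9 (87.0 and 46.9) stand above all other libraries at 22 h, and Nlrc5 (3.19 and 4.23) stands below them.

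The rest of the pathway was followed in iBAT by lists. Values with length offsets or with lane as a covariate were taken for the members only. The part of transcript length and of lane in the list changes in iBAT, BRN and LIV was not tested. The median late change over all iBAT genes was -0.07 on the log2 scale, that over the 10 members 0.53. Of all iBAT genes 20.9% were called in the late fast. Among other class I heavy chains 3 of 12 tested rose: H2-T22 (0.81, adjusted p = 0.011), the antibody receptor Fcgrt (0.68, 0.019) and the lipid-presenting Cd1d1 (0.49, 0.0229). None of 5 further loading partners was called by edgeR (none at an unadjusted p under 0.05), and the chaperones Calr and Canx were at -0.05 each. Of the 7 constitutive beta subunits that the immunoproteasome subunits stand beside or replace, Psmb1 (0.70, adjusted p = 0.0349) and Psmb4 (0.63, 0.0417) rose and the median was 0.59. Of 4 activator and assembly genes, Psme1 (1.07, adjusted p = 0.00247) and Psme2 (0.79, 0.0252), which encode the interferon-inducible proteasome cap, rose.

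The list that joins interferon signalling genes with class I transcription factors did not move as 1 group in iBAT. Of 22 tested genes for receptors, signal carriers and class I transcription factors, 2 rose and 5 fell, against 20.9% of all iBAT genes called in either direction, with a median of -0.20. Nfya (-1.04, adjusted p = 0.00627) and Nfyc (-0.92, 0.0115), subunits of the factor that binds CCAAT, fell, as did Creb1 (-0.73, 0.0193) and the kinase Jak1 (-0.56, 0.0257). Of 18 interferon-induced genes 1 was called, Parp14 (-1.28, adjusted p = 0.00246), and the median was -0.01. By contrast, 6 of 7 class II presentation genes rose, with a median of 1.43, among them H2-Aa (1.5, adjusted p = 0.00246), Cd74 (1.41, 0.00422), H2-Eb1 (1.44, 0.00422) and H2-DMa (1.59, 0.00525). All 4 endothelial markers fell, with Kdr at -1.74 (adjusted p = 0.00199). Of the 5 T cell markers 2 could be tested and 1 rose, Lck (2.46, adjusted p = 0.0286), and of the 4 NK cell markers 2 could be tested and 1 rose, Gzma (3.43, 0.013). The sums of both lists were high in 1 of the 22 h libraries, replicate 2, and within the range of the other iBAT libraries in the other.

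In BRN, 1 of the 10 genes was called in the late fast, Psmb10, beside 11.2% of all BRN genes. It stood at 28.2, 35.5 and 41.3 normalised CPM at 0 h, at 60.8, 42.7 and 38.03 at 2 h, at 76.9 and 86.95 at 8 h, at 74.2, 60.6 and 73.7 at 12 h, at 95.7 and 73.0 at 18 h and at 88.9, 98.3 and 51.7 at 22 h. Every library from 8 h on was above all 0 h libraries. The change was 1.23 on the log2 scale in the late fast (SE 0.23, adjusted p = 0.00831) and 1.11 in the daytime fast (SE 0.22, adjusted p = 0.0126, all BRN genes called 8.16%). In the same libraries Psmb8 and Psmb9 were low and not called.

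Of the 7 constitutive proteasome beta subunits 5 rose in BRN in the late fast, where 11.2% of all genes were called, led by Psmb6 (1.196, adjusted p = 0.0118), Psmb4 (0.74, 0.0207), Psmb2 (0.68, 0.0257) and Psmb5 (1.27, 0.027), with a median of 0.74 against -0.09 for all BRN genes. Their summed level was 531 to 587 at 0 h and 611 to 1263 in all later libraries. Of 4 activator and assembly genes 2 rose, the assembly factor Pomp (0.67, adjusted p = 0.015) and Psme1 (0.99, 0.0164). Length went with the change in BRN too (rho = -0.409 over 16423 genes), and with length offsets Psmb10 was at 0.90 (adjusted p = 0.0218) in the late fast and at 0.77 (0.05, not called) in the daytime fast. The 4 pancreas markers, which brain tissue should lack, summed to 5.70 to 12.8 at 0 h and to 7.51 to 65.8 later. Their part in the result was not tested. The BRN call was lost without 0 h replicate 1 (1.104, adjusted p = 0.0916), with lane as a covariate (1.01, 0.524) and with all libraries (1.00, 0.494).

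In LIV, where 10.6% of all genes were called in the late fast, Psmb10 was also the only member called. It was at 51.8, 51.9 and 54.7 at 0 h, at 59.3, 87.2 and 68.8 at 18 h and at 66.5, 80.2 and 65.1 at 22 h. No late library overlapped the 0 h libraries, while those at 8 h (46.7, 42.4 and 46.1) lay below them. The late change was 0.43 (SE 0.12, adjusted p = 0.0228), and the joint test of the 6 times gave an adjusted p of 0.00877. The 0 h libraries ran in lane 1 and the 18 and 22 h libraries in lane 2, and only the 8 h libraries ran in both, so that lane and fasting time were largely confounded. With lane as a covariate the change was 0.38 (0.462), and the call was lost without 0 h replicate 1, 0 h replicate 2 or 22 h replicate 2 (adjusted p from 0.0562 to 0.0929). Nlrc5, which fell in iBAT, was at 31.3 to 36.6 at 0 h and 35.5 to 57.9 in the late fast in LIV (0.43, SE 0.19, adjusted p = 0.157). Of 5 loading partners 2 fell in LIV, the chaperones Canx (-0.64, adjusted p = 0.00286) and Pdia3 (-0.51, 0.0174). Of 6 class II genes tested 2 rose, H2-Ab1 (0.63, 0.0245) and H2-Eb1 (0.50, 0.042), as did 2 of 7 constitutive subunits, Psmb5 (0.47, 0.0128) and Psmb3 (0.48, 0.0139), against 10.6% of all LIV genes called in either direction.

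In the other 6 organs no member was called by edgeR in the late fast, the share of all genes called being 15.3% in STM, 1.95% in OB, 0.344% in CBL, 0.0596% in BST, 0.00609% in pgWAT and 0% in psWAT. At an unadjusted p under 0.05 there were 4 members in CBL, 3 in pgWAT, 1 each in OB, BST and STM and 0 in psWAT. Among all genes, 2402 of 15976 stood under it in CBL, 3567 of 16412 in pgWAT and 3813 of 16742 in OB. The counts were 1656 of 16784 in BST, 5266 of 16281 in STM and 867 of 16721 in psWAT. DESeq2 called B2m in pgWAT, Tap2 in STM and none in the other 4 organs. In CBL all 9 tested members had positive estimates, with a median of 0.21 against -0.01 for all genes. Tap1 in CBL was at 1.59, 1.64 and 1.54 at 0 h, at 3.28, 2.41 and 2.97 at 18 h and at 3.66, 2.90 and 1.91 at 22 h. All late libraries lay above the 0 h libraries, and the change of 0.83 (SE 0.25) had an adjusted p of 0.103. In pgWAT, B2m was at 1757, 1716 and 1543 at 0 h and at 2145 to 3346 in the 6 late libraries, which did not overlap (0.66, SE 0.24, adjusted p = 0.149). Nlrc5 was lower there, at 38.8, 27.6 and 51.45 at 0 h and 8.16 to 29.5 in the late fast (-1.04, SE 0.34, adjusted p = 0.13), the 8.16 being the library that stood apart. Without that library the changes were 0.61 for B2m (adjusted p = 0.0877) and -0.94 for Nlrc5 (0.0938). B2m in pgWAT also reached 2600 at 2 h, 2301 at 8 h and 2259 at 12 h, within the late range. Length went with the late change in pgWAT (rho = -0.347 over 16108 genes) and in OB (-0.379 over 16423 genes). With length offsets no member was called in either.

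In STM, Tap2 was at 27.3, 20.3 and 20.95 at 0 h, at 31.7, 39.2 and 32.6 at 18 h and at 48.3, 27.1 and 30.7 at 22 h (0.61, SE 0.22, adjusted p = 0.0668). The late range met the 0 h range only at 27.1 to 27.3. H2-K1 in STM ran from 256 to 368 at 0 h and from 160.6 to 390 in the late fast, so that the 0 h range lay within the late range. In OB, Psmb10 was at 29.3, 27.02 and 31.3 at 0 h and at 29.96 to 47.8 in the late fast (0.32, SE 0.12, adjusted p = 0.136). In OB, STM and pgWAT the 0 h and the late libraries ran in different lanes, and a value with lane as a covariate rests on the libraries of the times between.

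Whether a late change differed between organs was tested directly, as the change in 1 organ minus the mean change in the other 8, with the animal within its time as a block. Of 90 such differences 3 passed. Over all 22113 genes, the share passing was 14.7% in STM, 10.4% in BRN, 9.28% in iBAT and 3.34% in pgWAT. It was 0.606% in LIV, 0.534% in psWAT and 0% in OB, CBL and BST. The change of Psmb10 was higher in BRN than elsewhere by 0.89 on the log2 scale (SE 0.22, adjusted p = 0.0046, all genes 10.4%) and the difference was -0.74 in STM (SE 0.21, adjusted p = 0.00927, all genes 14.7%). In STM, Psmb10 was at 30.2, 18.4 and 35.55 at 0 h and at 18.2 to 28.8 in the late fast, and its own change there was not called (-0.36, adjusted p = 0.249). The change of Psmb8 was higher in iBAT by 0.98 (SE 0.31, adjusted p = 0.0332, all genes 9.28%). For Nlrc5 in iBAT the difference was -1.23 (adjusted p = 0.06) and for Psmb9 0.93 (0.0776). None of the 3 passed with all libraries or without replicate 1, and 1 of them passed without replicate 2, Psmb10 in STM (-1.06, adjusted p = 0.000476).

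Over all retained libraries, after removing each organ's mean, the members went together unequally. The correlation of a member with the mean of the other 9 was 0.766 for H2-K1, 0.746 for H2-D1 and for Psmb8, 0.664 for Psmb10, 0.610 for Psmb9, 0.532 for Tap1, 0.522 for Tapbp, 0.481 for B2m, 0.270 for Tap2 and 0.120 for Nlrc5. Without psWAT (140 libraries) it was -0.09 for Nlrc5 and 0.715 for H2-K1. Among 11670 other genes, the one most like the members' mean was Psme1 (r = 0.776), which encodes a subunit of the proteasome cap. Also among the 10 most like were Gm15427, Pfn1, Ctsz, Gngt2, Ctsa, Aif1, Ccm2 and Jpt1, at 0.655 to 0.677. Without psWAT, Psme1 stayed first at 0.721, but none of the other genes named kept a place among the 10. The other 9 were then Apoe, Ndufv3, Tmem205, Gm2a, Ndufa10, Psmd4, Tex264, Ctsd and Sod1, at 0.678 to 0.71. These correlations describe libraries that share mice, organs and scaling, and carry no test.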

How the data were processed

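Counts per gene were deposited by the authors, raw and unfiltered. The authors made stranded mRNA libraries, aligned read pairs with TopHat2 2.1.1 to GRCm38.p5, retained only reads with 1 place in the genome, and obtained exon counts per Gencode gene with HTSeq 0.9.1 (versions per the submitters' processing notes). The 5 libraries the study excluded were left out except where all libraries are named. Members and gene lists were chosen with earlier results of these data known. All 10 members were described in every organ. Of each list at most 4 genes called in iBAT in the late fast, where 5 of the 10 members were called, are named, in order of adjusted p. List genes named in BRN and LIV, and Calr and Canx in iBAT, lie outside that rule and were chosen after their values were seen, and the genes most like the members are the 10 with the highest correlation, of which 1 is not reported here.

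A gene was tested in an organ where at least 3 libraries reached the CPM that 10 counts make at the organ's median depth. The main test was edgeR 4.0.16 (TMM, robust quasi-likelihood fit over the 6 times of an organ) in R 4.3.3, with Benjamini-Hochberg adjustment over all genes kept. Organs were compared in 1 fit over all libraries, with TMM factors set over all of them and the animal as a block. DESeq2 1.42.0 and limma 3.58.1 were alternatives. Correlations used 100000 permutations in SciPy 1.17.1 on log2(normalised CPM + 1). The code was tested on simulated data. Counts of 3 in the shallowest retained library equal 0.985 CPM.

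Replicates were different mice. Among 152 pairs none agreed within sampling noise (lowest chi-square per degree of freedom 1.78). The 22 h contrast, the replicates left out of the organ difference and the fit without the libraries that stood apart were chosen after seeing the data. Gene positions and lengths come from a later Gencode release on GRCm38 than the one the authors counted with, and sequences from RefSeq on GRCm38.p6.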

Additional observations from a re-analysis of the deposited data

Results flagged for a closer look

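The late change, the mean of 18 and 22 h against 0 h, differed between organs for 3 pairs of a gene and an organ in a test of the difference itself (edgeR's quasi-likelihood test, Benjamini-Hochberg adjustment over 22113 genes). For Psmb10 in BRN the log2 change was 0.892 above the mean of the other 8 organs (SE 0.22, adjusted p = 0.0046). For Psmb10 in STM the difference was -0.745 (SE 0.21, adjusted p = 0.00927). For Psmb8 in iBAT it was 0.976 (SE 0.31, adjusted p = 0.0332). Of all genes 10.4% passed this test in BRN, 14.7% in STM and 9.28% in iBAT. The adjusted p of the 3 differences ran from 0.00432 to 0.207, from 0.000476 to 0.323 and from 0.00257 to 0.949 over the alternatives. STM had its 0 h and late libraries in different lanes, with only the 8 h libraries in both.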

How the results depend on the processing

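The late fast count of 7 called pairs was 11 with 0 and 2 h together as the reference and 1 to 9 when libraries were left out, the lowest without replicate 1 of every group, and it was 2 without iBAT 0 h replicate 2 and 4 without iBAT 22 h replicate 2. The daytime count of 1 was 0 with all libraries and with length offsets, and 0 to 1 without a replicate. With lane as a covariate it was 1, but the pair was Nlrc5 in LIV (0.91, adjusted p = 0.0238) in place of Psmb10 in BRN (0.85, 0.48). The 2 h count was 0 under every alternative. The joint count of 7 was 13 without a filter on low counts, 4 with length offsets, 14 with DESeq2 and 4 to 6 without a replicate. The 22 h count of 9 was 5 with length offsets, where B2m in iBAT reversed to -0.232 (adjusted p = 0.505), and 3 to 10 when libraries were left out, with 5 without iBAT 22 h replicate 2. Without replicate 2 or 3, 1 iBAT library remains at 22 h, and it is assumed to vary like the other groups. With lane as a covariate no late, joint or 22 h value could be estimated in iBAT, and over the other organs the late count went from 2 to 0, the joint count from 1 to 0 and the 22 h count from 1 to 0. The 3 differences between organs became 0 with all libraries, 6 with limma-voom and 0 to 4 without a replicate. The 59 called steps between organs numbered 53 to 59 under the alternatives. Causes were not tested.

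Same-numbered replicates are different mice at each time, and their deviations did not go together (mean correlation within an organ from -0.0779 to 0.159, lowest pair -0.764). With the replicate number as a block the counts were 7 for the late fast, 1 for the daytime fast, 0 for 2 h, 8 for the joint test and 9 for 22 h. In iBAT 11 of 17 libraries deviated most like their own number, and in no organ did all.

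With 2 or 3 mice per time, p-values here measure the spread between few mice. Depth limits Nlrc5 in CBL, BRN and BST, where some libraries held 3 counts or fewer. Lane went with fasting time in OB, STM, LIV and pgWAT, and with 22 h in iBAT.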
